A study of Mus musculus with 3 samples.

Results

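The genes described here are pairs that meet tail to tail: both are protein-coding, they lie on opposite strands, they share at least 1 exon base, and the plus-strand gene has the lower start and the lower end, so that the 3′ ends run into each other. The rule uses gene coordinates, strand and biotype and no measured value. It gave 783 pairs, out of 1388 protein-coding pairs of any arrangement and 4597 pairs of any biotype that share exon bases across strands. The pairs hold 1558 of the 21764 annotated protein-coding genes. Only 8 of these genes belong to more than 1 pair, and none belongs to more than 2.

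RNA was counted in 3 libraries of T-helper 1 (Th1) cells, primary T cells of C57BL/6NJ mice that were differentiated in culture from the CD4 lineage and, per the file headers, carry a 24 hr mark. The libraries form 1 group, labelled biological replicates 1, 2 and 3 under the same donor entry, with no other condition. The labels do not record whether different animals or cultures were used, so a p-value here speaks only of the spread among these 3 samples, part of which may be technical. The assay is called total RNA sequencing in the labels, whereas the protocol document they name is for polyA-selected RNA. Libraries are compared with each other below, and tail-to-tail pairs with 454 head-to-head pairs (5′ ends overlapping) and 151 pairs in which one gene spans the other.

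An mRNA's 3′ end is made by cleavage a short distance after a polyadenylation signal, most often the hexamer AATAAA in DNA letters, followed by addition of a polyA tail. Polymerase usually runs past that point before it stops, so genes that converge can be transcribed through each other's ends. Transcripts of such a pair are complementary over the shared bases and could form double-stranded RNA, which cells can edit or sense. Only a library that keeps strand can tell the genes of a pair apart there.

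Total counts were 3553547, 2945353 and 3369468 in replicates 1, 2 and 3 (the order used for all counts below). Where a gene is at 0 in a library, up to 3 counts remain possible by counting error alone. Reads were assigned by strand, per the file headers, whose folder name holds the word stranded, but whether the setting matched the strand of the library was not tested. With a setting that did not match and a library that kept strand without error, counting would change as follows. A gene's reads would be counted only where an opposite-strand gene has exon, on that gene, and all its other reads would be left out. How fully these libraries kept strand was not tested. Counts are therefore given as deposited, each member's partner is named beside it, and which gene of a pair the reads came from, and what part of its reads was counted, was not tested. All 15 T cell marker genes had 10 or more counts in every library, but only 2 of 8 Th1 markers did, Stat4 and Il12rb2. Tbx21, which encodes the Th1 factor T-bet, had 15, 11 and 8 counts, Ifng had 2, 2 and 1, Cxcr3 had 2, 1 and 1, and Hlx had 0 in all. In bulk RNA, fewer cells of a type and less RNA per cell cannot be told apart. Reads left out at counting could lower a marker's counts too, and this was not tested. Markers with 10 or more counts numbered 1 of 2 for CD8 T cells (Cd8b1 with 30, 20 and 36, while Cd8a had 1 in each library), 1 of 6 for B cells, 1 of 7 for myeloid cells, 0 of 5 for NK cells and 0 of 5 for erythroid cells, whose 5 genes were all at 0.

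Most shared bases were outside coding sequence. Of the 434544 shared bases, 68.8% were coding in neither gene, 15.8% were coding in the plus-strand gene, 16.5% in the minus-strand gene and 1.16% in both (stop codons not counted as coding). In 361 pairs (46.1%) no shared base was coding. The 3′ end of a member lay in an untranslated exon of its partner in 975 cases of the 1566 (62.3%), in an intron in 531 (33.9%) and in coding exon in 60 (3.83%). In 354 pairs both ends lay in untranslated exon of the other gene. Pairs shared a median of 302 exon bases, with quartiles of 96 and 797.5 and a range from 1 to 4652.

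The 3′ ends of a few pairs that the results below turn on are shown first, so that the signals that end each transcript can be compared. Each line gives the last 30 bases of the transcript, 5′ to 3′ on its own strand, from GENCODE release M21 transcripts (GRCm38, the mm10 build), with a hexamer AATAAA or ATTAAA in capitals where one is present.
Phykpl: tttaaatgtAATAAAaacaaaaccccgtct
Hnrnpab: gttttcttaAATAAAttgagggagaccttg
Tlcd1: tcaAATAAAtaactatagagaaaattgtgc
Tcp1: tcagaAATAAAtctgcctgcctttgcctct
Acat3: caccattatgtaaagatgttatctcgaaaa
Cand2: tatttaaacataaaacatgcacacaagcca
Rpl32: ttaAATAAAatcacaaaacctgccgtcgta
Exosc9: taAATAAAatgtctccataaactactgtaa
Ccna2: tgtaAATAAAgcatgcaaattaacccttta
Foxp3: gtgagcataaagtccctgtgtgatcacccc
Ccdc22: atcccaAATAAAagagaagttcttctgtgg

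These windows lie at chr11:51604460-51604489 (Phykpl, plus) and chr11:51600100-51600129 (Hnrnpab, minus), and Tlcd1 ends at chr11:78181880-78181909 (plus). Tcp1 ends at chr17:12925038-12925067 (plus) and Acat3 at chr17:12923833-12923862 (minus). Cand2 (chr6:115805528-115805557, plus) and Rpl32 (chr6:115805505-115805534, minus) end so close that their windows overlap, and each window lies wholly in exon of the other gene. Exosc9 ends at chr3:36565698-36565727 (plus) and Ccna2 at chr3:36564865-36564894 (minus). Foxp3 ends at chrX:7595214-7595243 (plus) and Ccdc22 at chrX:7593809-7593838 (minus). In Phykpl, Hnrnpab, Tlcd1, Tcp1, Rpl32, Exosc9, Ccna2 and Ccdc22 a hexamer AATAAA stands 15 to 22 bases before the end. The windows of Acat3, Cand2 and Foxp3 hold neither hexamer.

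A transcript ending at the deposited 3′ end was found for 1244 of the 1558 members. Searched on the transcript strand alone, AATAAA stood in the last 40 bases of 55.6% of them, and AATAAA or ATTAAA in 68.6%. For the other protein-coding genes with such a transcript (17468 of 20206), the shares were 57.9% and 70.3%. The members' shares lay slightly lower, and the difference was not tested.

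**Figure D1:**
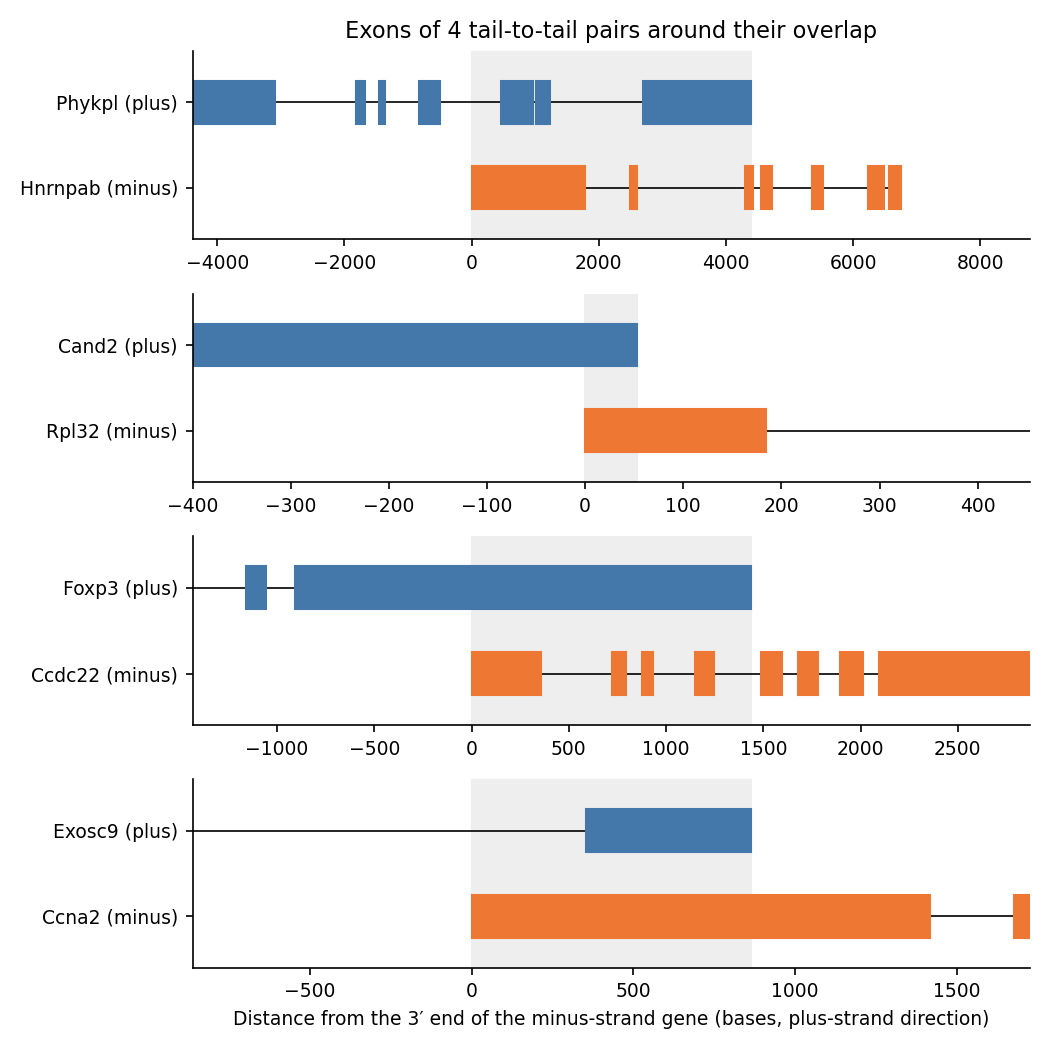
Exons of 4 tail-to-tail pairs, plus-strand gene above in blue and minus-strand gene below in orange, against the distance in bases from the minus-strand gene's 3′ end; the shaded zone runs from that end to the plus-strand gene's 3′ end. Cand2 and Rpl32 meet over 53 bases of their last exons, whereas the 3′ ends of Phykpl and Hnrnpab bound a span of 4390 bases that holds introns of both genes.

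Members of tail-to-tail pairs held 26.3%, 30.1% and 27.2% of the counts of the libraries, 27.9% ± 1.96 (SD, n = 3). Members of head-to-head pairs held 9.98% ± 0.339 and members of spanned pairs 4.27% ± 0.368. The 16963 protein-coding genes that share no exon base with an opposite-strand gene held 31.3%, 21.7% and 28.9%, or 27.3% ± 4.99. Replicate 2 had the highest share on tail-to-tail members and the lowest on genes without an overlap. Members were counted in most cases: 1294 of 1558 (83.1%) had 10 or more counts in every library, against 32.6% of genes without an overlap and 39.3% of all protein-coding genes. This was not particular to tail-to-tail pairs, as the share was 78.3% for members of head-to-head pairs and 58.6% for members of spanned pairs. Another 82 tail-to-tail members (5.26%) were at 0 in all libraries, against 8.31% of head-to-head and 20.7% of spanned members. Per kb of exon, the median member had 34.9, 26.9 and 32.2 counts (31.3 ± 4.07), the median member of head-to-head pairs 23.9 ± 4.03 and the median member of spanned pairs 7.97 ± 1.58. The median gene without an overlap was at 0.

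Counts were seldom spread evenly over a pair. In 603 pairs (77.0%) both genes had 10 or more counts in every library, in 95 pairs 1 gene did and in 85 neither did. Over the 696 pairs whose summed counts reached 10 in every library and on each of whose genes at least 1 count fell, the gene with fewer counts held a median of 19.3%, 17.1% and 18.9% of the pair's counts (18.4% ± 1.20, n = 3). It held less than 10% in 210 pairs and more than 40% in 99. Which gene had more was taken from these counts, so these shares are a description. The plus-strand gene was the higher in 373 of the 696 pairs and the shorter gene in 314. For head-to-head pairs the lower gene's median share was 17.3% ± 1.92 and for spanned pairs 11.7% ± 1.19. The levels of the 2 genes of a pair had a Spearman rho of 0.32 across tail-to-tail pairs and 0.13 across head-to-head pairs, which share libraries and are not replicates.

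**Figure D2:**
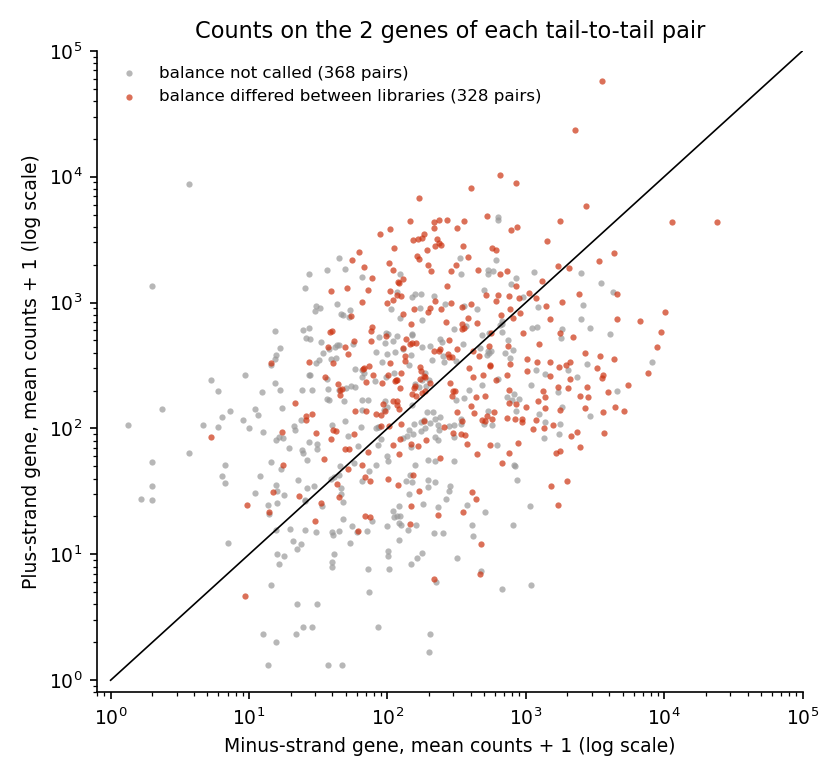
Mean counts plus 1 over 3 libraries on the plus-strand gene (vertical) and minus-strand gene (horizontal) of each of 696 tail-to-tail pairs, both on log scales, with a line of equal counts; the 328 pairs whose balance differed between libraries are red (43.8% of all 1184 protein-coding pairs tested were called). Points lie on both sides of the line, with Phykpl, at 57835 counts against 3573 for Hnrnpab, the highest.

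The pair with the most counts was Phykpl with Hnrnpab on chromosome 11, with 809 shared bases. Phykpl (51584757 to 51604489, plus strand), a phospho-lyase gene, had 56428, 60038 and 57038 counts. Hnrnpab (51600100 to 51606847, minus strand), which encodes an RNA-binding protein of the hnRNP family, had 4236, 2593 and 3891. Phykpl was highest in replicate 2, the library with the lowest total, and Hnrnpab was lowest there. In a chi-square test per gene at scaled library sizes, Phykpl differed between libraries and Hnrnpab did not pass (adjusted p = 0.0622). Per kb of exon, Phykpl had 5963 ± 199 counts and Hnrnpab 1284 ± 311. Hnrnpab's share of the pair was 6.98%, 4.14% and 6.39%, and this balance differed between libraries beyond counting error (chi-square test, Benjamini-Hochberg adjusted p = 6.46e-108, and 0.00155 without replicate 2).

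Next by counts was the mitochondrial pair of mt-Nd5 and mt-Nd6, both subunits of respiratory complex I. They meet over 14 bases at chrM:13552-13565, shown on the plus strand 5′ to 3′, with capitals on the stop codon of mt-Nd5 (at the right) and on the reverse complement of that of mt-Nd6 (at the left).
mt-Nd5 and mt-Nd6: TTAatctcgagTAA
The mt-Nd5 gene had 4275, 3806 and 5116 counts and mt-Nd6 had 20093, 25190 and 26553. Per kb of exon, these were 2412 ± 364 and 46137 ± 6561 counts. On mt-Nd6, the lowest library was replicate 1, and its libraries did not overlap those of mt-Nd5. The share on mt-Nd5 was 17.5%, 13.1% and 16.2% (adjusted p = 1.36e-44, and 8.22e-04 without replicate 2).

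Ribosomal protein genes were the lower gene in 2 of the 12 pairs with the most counts. Tlcd1, which encodes a membrane protein with a TLC domain, had 23401, 23725 and 22766 counts, while Rpl23a, a large-subunit ribosomal protein gene across from it with 506 shared bases, had 2690, 1586 and 2490. Per kb the gap was smaller, with 4651 ± 97.4 counts on Tlcd1 and 2663 ± 694 on the short Rpl23a. Cand2, known from muscle, had 5567, 6201 and 5924 counts, while Rpl32 had 2914, 2038 and 3145. Per kb the order turned, with 1077 ± 58.1 counts on Cand2 and 2803 ± 606 on Rpl32. Both ribosomal protein genes were lowest in replicate 2, while their partners were highest there. Adjusted p-values for balance were 1.71e-65 for Tlcd1 with Rpl23a and 2.48e-52 for Cand2 with Rpl32, and without replicate 2 they were 0.298 and 0.828.

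Of 3 further pairs among the 12, the higher genes were Plppr3, Map3k12 and Rpgrip1. Plppr3, a brain phospholipid phosphatase-related gene, had 10904, 9984 and 9507 counts, against 1125, 538 and 875 on Ptbp1, a splicing repressor gene. Map3k12, a kinase known from neurons, had 10144, 9538 and 8715, against 766, 405 and 585 on Pcbp2, which encodes a poly(C)-binding protein. Rpgrip1, known from the photoreceptor cilium, had 8321, 9435 and 9084, against 1036, 585 and 913 on Supt16, a subunit of the histone chaperone FACT. The higher gene had 11.98 times the mean counts of the lower for Plppr3, 16.2 times for Map3k12 and 10.6 times for Rpgrip1, and its libraries did not overlap those of its partner. Adjusted p-values for balance were 7.4e-32, 4.71e-18 and 4.46e-36, and 0.11, 0.181 and 6.33e-04 without replicate 2.

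The higher genes of 4 more of the 12 were Srr, 1700022I11Rik, Tti2 and Acat3. Srr, which encodes serine racemase, had 8618, 9127 and 8671 counts and Tsr1, a ribosome assembly gene, 503, 343 and 490. On the plus strand, 1700022I11Rik had 8330, 8046 and 8055 and Vcp, an AAA ATPase gene, 497, 276 and 430. For Tti2, a partner of the PI3K-like kinases, the counts were 10577, 10214 and 10145, and for Mak16, a ribosome assembly gene, 705, 525 and 720. These 3 lower genes were all lowest in replicate 2 (adjusted p = 3.21e-09, 2.37e-11 and 9.54e-07 for balance, and 0.803, 0.316 and 0.525 without replicate 2). In the chi-square test per gene at scaled library sizes, Tsr1 and Vcp did not differ between libraries (adjusted p = 0.469 and 0.309), and Mak16 did (0.0241). Acat3, an acetyl-CoA acetyltransferase gene, had 11711, 11452 and 11052 counts and Tcp1, a subunit of the CCT chaperonin, 4590, 4133 and 4376 (adjusted p = 0.00143, and 0.846 without replicate 2). In all 12 pairs the lower gene's share was lowest in replicate 2.

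**Figure D3:**
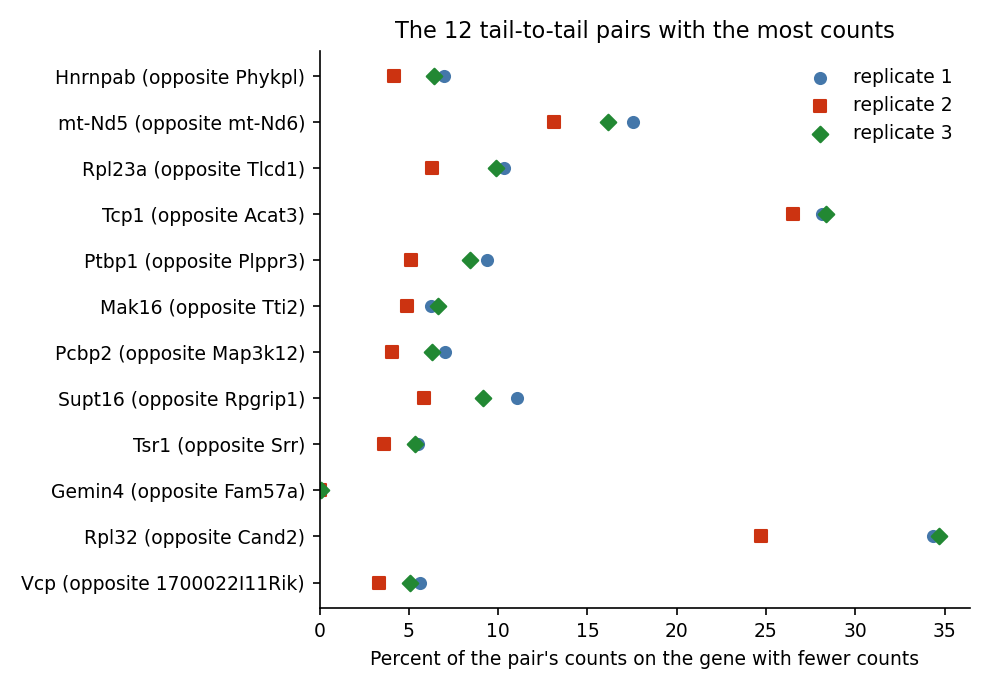
Percent of a pair's counts on its gene with fewer counts, by library, for the 12 tail-to-tail pairs with the most counts; blue circles, red squares and green diamonds are replicates 1, 2 and 3. The red squares lie leftmost in each row, for example 4.14% for Hnrnpab against 6.98% and 6.39%.

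The remaining pair of the 12, Fam57a with Gemin4, was also among the 6 most uneven of the pairs with 100 or more counts in every library. Fam57a had 8668, 8824 and 8663 counts and Gemin4, a gene of the SMN complex that assembles spliceosomal particles, had 2, 0 and 6. Of Gemin4's exon length, 89.8% is shared with Glod4 on the same strand. By its documented default, the counting program leaves out a read pair that falls in more than 1 gene on the counted strand, and the headers record no option against this. Whether this lowered the counts of Gemin4, or of the genes named next, was not tested. Other uneven pairs had the same feature. Gdf1 (0 counts, opposite Upf1 with 430, 243 and 337) lies wholly in exon of Cers1, and Gm44503 (0 counts, opposite Pigb with 549, 528 and 541) wholly in exon of Ccpg1 and Dyx1c1. Gm42878 (1 count in each library, opposite Tmem116 with 1384, 1399 and 1276) shares 53.8% of its exon on its own strand. Gdf1 and Gm44503 have no exon base that is theirs alone on their strand, so that default could leave them at 0 at any level. Their counts of 0 therefore do not show how far their levels lie below those of Upf1 and Pigb.

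Not every uneven pair was of that kind. Smpd5 had 5, 3 and 6 counts opposite Oplah with 1149, 1057 and 1054, and Smpd5 shares no exon with another gene of its strand. In all, 7.89% of members share exon bases with a gene of their own strand, and 16 members share 50% or more of their exon length. Of those 16, 3 were at 0 in every library and 9 had 10 or more counts in every library.

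At the other end are the 6 pairs with the most even mean counts. Dalrd3 had 620, 677 and 675 counts and Wdr6 669, 668 and 628 over 383 shared bases (adjusted p = 0.255). Impdh2, an enzyme of guanine nucleotide synthesis, had 522, 278 and 443 and Ndufaf3, a complex I assembly factor gene, 404, 418 and 426. Their means were close, at 414 and 416 counts, but the balance turned over: Impdh2 was the higher in replicates 1 and 3 and the lower in replicate 2 (adjusted p = 6.05e-09, and 0.138 without replicate 2). Farp2 had 93, 124 and 92 counts and Stk25 128, 94 and 84, so that Stk25 was the higher in replicate 1 alone (adjusted p = 0.0187, but 0.518 without replicate 1 and 0.191 without replicate 2). Gmppb had 632, 577 and 510 counts and Rnf123 524, 599 and 556, so that Gmppb was the higher in replicate 1 alone (adjusted p = 0.00786, but 0.694 without replicate 1). For Scyl3 with BC055324 and Acvr2a with Orc4 the mean shares on the plus-strand gene were 50.3% and 50.6%, and balance did not pass the test (adjusted p = 0.173 and 0.27).

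Pairs that shared more exon bases had more counts. The median summed count was 193 ± 40.1 in 201 pairs with under 100 shared bases, 286 ± 17.8 in 189 pairs with 100 or more but under 300, 704 ± 39.4 in 243 pairs with 300 or more but under 1000 and 1081 ± 28.5 in 150 pairs with 1000 or more (mean ± SD over 3 libraries of the median over all pairs of the class). Over the 696 pairs with counts on both genes, the higher gene's median went from 190 ± 24.5 to 1094 ± 8.02 counts between the first and the last of these classes. The lower gene's median went from 56.5 ± 6.93 to 132 ± 25.3. Its median share of the pair went from 26.1% ± 0.632 to 12.1% ± 1.18. Across the 696 pairs, Spearman's rho between shared bases and summed counts was 0.40, against 0.22 for the lower gene alone, and it was 0.18 across head-to-head pairs and 0.45 across spanned pairs. Exon length and counts of the plus-strand gene had a rho of 0.10. Points in these correlations share libraries and some share a gene, so no p is given.

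**Figure D4:**
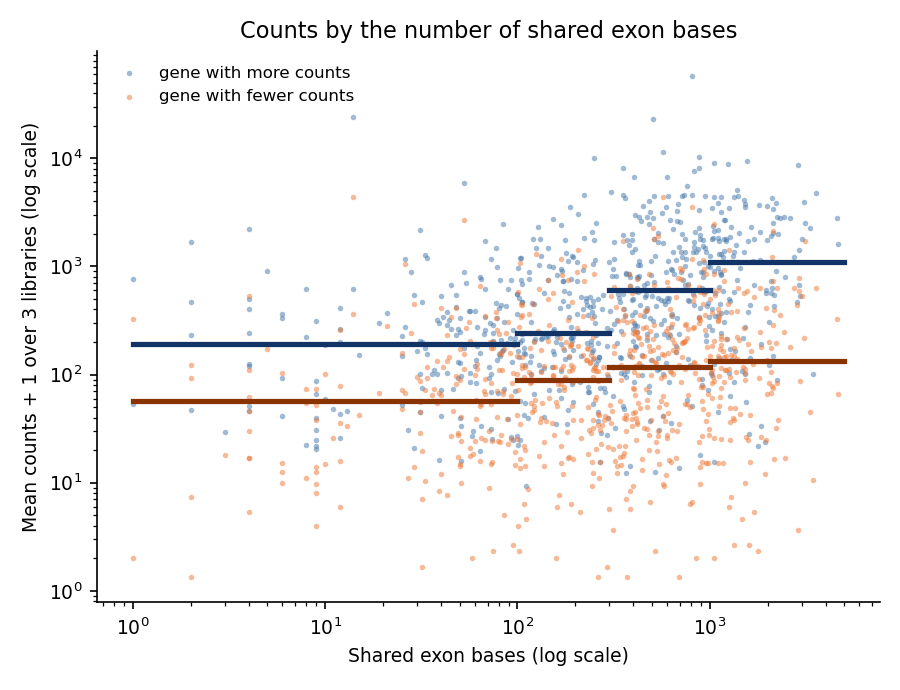
Mean counts plus 1 over 3 libraries against the number of shared exon bases for 696 tail-to-tail pairs, both on log scales, with the higher gene of each pair in blue and the lower in orange; bars are the medians of 4 classes of shared bases. The blue bars climb from 190 to 1094 counts and the orange bars from 56.5 to 132.

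Pairs also differed by where the 3′ ends lay. In the 315 counted pairs whose ends both lay in untranslated exon of the partner, the median of the summed counts was 353 ± 40.9 and the lower gene's median share 24.6% ± 0.886; all 354 pairs of this kind shared a median of 130 bases. In the 115 counted pairs whose ends both lay in introns of the partner, these were 665 ± 54.2 counts and 13.6% ± 2.21, and all 134 such pairs shared a median of 270 bases. In the 266 counted pairs with other placements they were 887 ± 20.5 counts and 14.7% ± 1.86, and all 295 such pairs shared a median of 539 bases. The lower gene's shares of 13.6% and 14.7% in these last classes differed by less than their spread over libraries. These classes were described after the values were seen, and their difference was not tested.

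The pairs with the most and the fewest shared bases show the spread within this relation. Among pairs with both genes at 10 or more counts, Pstk with Ikzf5 shared 4652 bases and had 1662, 1530 and 1631 counts against 78, 51 and 65 on Ikzf5, a zinc finger gene of the Ikaros family. Nr2c2 with Mrps25 shared 4590 bases, all untranslated in both, and had 342, 314 and 318 against 2604, 2901 and 2833 on Mrps25, a mitochondrial ribosomal protein gene. Balance did not pass the test in either pair (adjusted p = 0.263 and 0.089), although that of Nr2c2 with Mrps25 did without replicate 3 (0.0437). Nr1i3, a nuclear receptor gene known from liver, had 2217, 2318 and 2228 counts opposite 54, 36 and 41 on Tomm40l. Echdc1 with Rnf146 was more even, at 1712, 1712 and 1755 against 2442, 2628 and 2427. Cntd1 had 3863, 4041 and 3849 counts opposite 263, 181 and 209 on Becn1, an autophagy gene. Balance differed between libraries for Cntd1 with Becn1 (adjusted p = 4.82e-04), but not without replicate 1 (0.157) or replicate 2 (0.12). It did not pass for Nr1i3 with Tomm40l (0.17) or Echdc1 with Rnf146 (0.101).

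Pairs that share very few exon bases were counted too. Ttc19 and Ncor1, a corepressor of nuclear receptors, share 1 exon base and had 302, 352 and 315 against 908, 632 and 762 counts. Their spans overlap further, as Ttc19 ends at 62328451 (plus) and Ncor1 at 62316426 (minus). Srrm2, a spliceosome-associated gene, and Elob, which encodes elongin B, share 2 bases and had 2093, 1218 and 1712 against 154, 79 and 132. Palm3 had 192, 261 and 234 counts opposite 106, 71 and 96 on Il27ra, a cytokine receptor gene, over 2 shared bases. Hspb6 and Lin37 share 3 bases and had 29, 33 and 24 against 26, 13 and 12. The balance of Ttc19 with Ncor1 and of Palm3 with Il27ra differed between libraries (adjusted p = 2.19e-06 and 0.00165), but not without replicate 2 (0.134 and 0.281), and that of Palm3 with Il27ra not without replicate 1 either (0.0725).

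Libraries differed in how pairs were balanced. The balance of counts differed beyond counting error in 328 of 696 tail-to-tail pairs (47.1%; chi-square test of the counts of 2 genes in 3 libraries, Benjamini-Hochberg adjusted p of 0.05 or less). Over all 1184 protein-coding pairs tested, of any arrangement, the share called was 43.8%, and it was 38.7% for head-to-head and 41.0% for spanned pairs. These shares lie close together and their difference was not tested. The calls rest mainly on replicate 2: without it, 58 of 698 tail-to-tail pairs were called, against 200 of 695 without replicate 1 and 342 of 694 without replicate 3. The lower gene's share was lowest in replicate 2 in 426 of 696 pairs (61.2%) and in 244 of the 328 called (74.4%). For head-to-head and spanned pairs together, these shares were 59.0% and 80.6%.

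Raw counts show the shift without any scaling. Replicate 2 had 0.851 times as many counts in all as the mean of the other two. For the 603 pairs with both genes at 10 or more counts, the higher gene's counts in replicate 2 were a median of 0.978 times that mean (quartiles 0.831 and 1.04), and the lower gene's 0.764 times (0.617 and 0.940). For 5527 genes without an overlap the median was 0.585 (0.50 and 0.684). The higher gene had the larger ratio in 425 of the 603 pairs (70.5%). At TMM scaling (edgeR's trimmed mean of log ratios), the median log2 level of the higher genes relative to each gene's own mean was -0.26, 0.33 and -0.12, and that of the lower genes -0.08, 0.12 and -0.06. With scaling to total counts, replicate 2 stood at 0.12 for the higher and -0.10 for the lower genes, so the sign for the lower genes depends on the scaling. Over all protein-coding genes, replicate 2 stood at -0.08 and -0.32 on the same scales. The order of the 3 sets in replicate 2, higher genes above lower genes above genes without an overlap, was the same at both. It was not particular to tail-to-tail pairs. At TMM scaling, replicate 2 stood at 0.25 for higher and 0.002 for lower genes of head-to-head pairs, and at 0.33 and 0.07 for those of spanned pairs. With scaling to total counts these were 0.04 and -0.23, and 0.12 and -0.16.

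**Figure D5:**
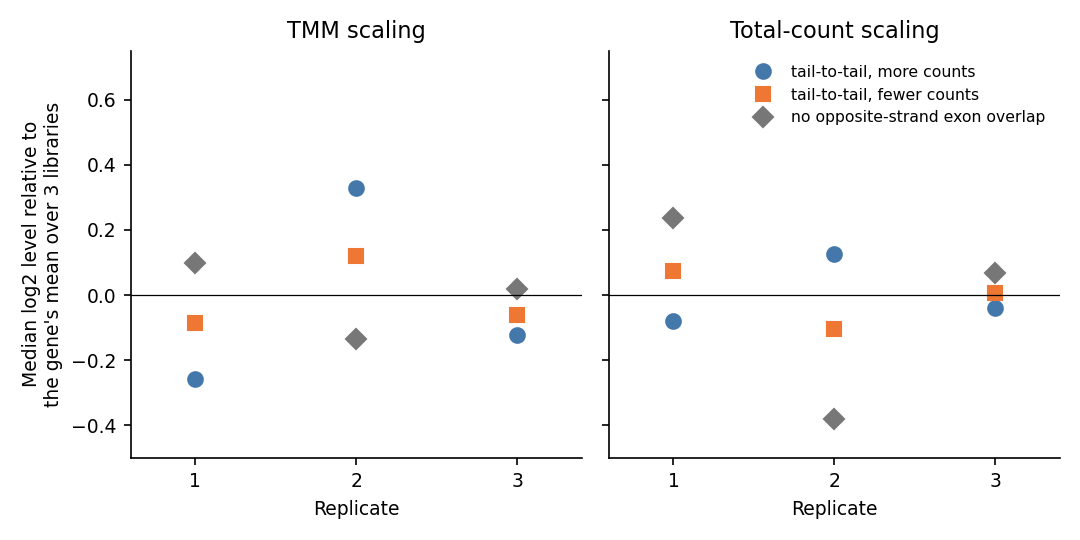
Median log2 level in each library relative to the gene's own mean over 3 libraries, at TMM scaling (left) and total-count scaling (right), for the higher genes (blue circles) and lower genes (orange squares) of tail-to-tail pairs and for genes without an opposite-strand overlap (grey diamonds). In replicate 2 the blue circles stand at 0.33 and 0.12 and the grey diamonds at -0.14 and -0.38.

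Single members were tested against counting error as well. Of 1296 members that passed the filter on low counts, 728 (56.2%) differed between libraries (chi-square test at TMM scaling, adjusted over 10216 genes), against 35.6% of all genes tested and 21.8% of genes without an overlap. For members of head-to-head pairs the share was 46.2% and for members of spanned pairs 50.9%. Such a test finds smaller differences at higher counts, these sets differ in counts, and the difference between their shares was not tested. Without replicate 2, 255 tail-to-tail members were called. Depth, replicate 2's total and its scaling factor (0.856, against 1.12 and 1.05) move with these calls, and their part in the result was not tested.

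Genes of broadly expressed families gave a way to ask which side of a pair holds the counts, chosen by symbol rather than by level. In 58 counted pairs exactly 1 gene matched such a family, and it held a median of 59.1% ± 2.51 of the pair's counts. It held more than 50% in 35 of the 58. With the counts of the genes of each pair exchanged, since which gene the reads came from was not tested, the median would be 40.9% and 23 of the 58 would exceed 50%. These values follow from the shares above by arithmetic and cannot tell which gene the reads came from. The range was wide, from 1.52% for Ndufa4l2 (3, 9 and 6 counts, opposite Shmt2 with 600, 305 and 498) to 95.4% for Psmc3, a proteasome ATPase gene (584, 406 and 579, opposite Slc39a13 with 33, 24 and 18). A match by symbol, as for Ndufa4l2, does not show that the gene itself is broadly expressed, and this was not tested. The 6 genes of translation factors all held more than 50%, among them Eif5b at 93.5% ± 1.20 and Eif4a2 at 91.4% ± 1.46, but Eef2kmt and Eif2ak1 match by symbol only and encode a methyltransferase and a kinase. Of 7 cytosolic ribosomal protein genes 4 held more than 50%, from Rps28 at 83.7% ± 0.384 to Rpl28 at 59.8% ± 3.43, while Rpl31 stood at 48.2% ± 5.26, Rpl32 at 31.3% ± 5.65 and Rpl23a at 8.81% ± 2.22. All 5 RNA polymerase subunits ranged from 4.93% (Polr2j, opposite Lrwd1) to 63.9% (Polr2b). Of the 11 genes under respiratory chain symbols, 6 held more than 50%, Ndufaf3 among them, an assembly factor.

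Several family genes with low shares are named here with their partners, chosen after their values were seen. Psmb7, a proteasome subunit gene, had 226, 96 and 186 counts opposite 7067, 6718 and 6484 on Nek6, a mitotic kinase gene. Uqcrc2, a complex III subunit gene, had 285, 135 and 216 opposite 2777, 2905 and 2680 on Pdzd9, and Snrpf, a core spliceosome gene, 151, 110 and 196 opposite 2564, 3678 and 3185 on Ccdc38. Cct8 was on the other side, at 1644, 790 and 1271 opposite Usp16 with 506, 447 and 461. Exosc9, a subunit of the RNA exosome, had 4504, 4516 and 4293 counts opposite 1771, 1669 and 1895 on Ccna2, which encodes cyclin A2. Their balance differed (adjusted p = 1.76e-04), but not without replicate 3 (0.201). Balance was called in 34 of the 58 family pairs (58.6%, against 43.8% of all pairs tested), and the family gene's share was lowest in replicate 2 in 37.

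T cell signalling genes occurred in 12 pairs. The list of 116 such genes had 108 with 10 or more counts in every library, and 15 of the 116 are members. Balance passed the test in 6 of the 12, near the 43.8% of all pairs tested. Cd247, the zeta chain of the T cell receptor complex, had 1867, 1774 and 1786 counts opposite 515, 537 and 535 on Pou2f1, an octamer-binding factor gene, over 3007 shared bases (adjusted p = 0.457). Nfkb2, of the noncanonical NF-kappaB pathway, had 648, 415 and 531 opposite 2344, 2196 and 2043 on Psd, with 4 shared bases (8.66e-07). Nfatc3, a calcium-regulated factor gene, had 192, 85 and 175 opposite 372, 437 and 401 on Esrp2, an epithelial splicing regulator (8.95e-10). Plcg1, a phospholipase of receptor signalling, had 186, 114 and 163 opposite 836, 905 and 789 on Zhx3 (9.79e-05). All 3 signalling genes had their lowest raw counts in replicate 2, the library with the lowest total, and without it the adjusted p-values were 0.605, 0.451 and 0.746. In the chi-square test per gene at TMM scaling, Nfkb2 and Plcg1 did not differ between libraries (adjusted p = 0.407 and 0.97), and Nfatc3 did (0.0244). Their partners Psd, Zhx3 and Esrp2 all differed (4.11e-50, 2.25e-32 and 1.37e-17).

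STAT genes met each other. Stat5a, which transmits interleukin 2 signals, had 257, 149 and 186 counts and Stat3, known from interleukin 6 signalling, had 314, 286 and 293 across 72 shared bases. Stat3 was the higher in all 3 libraries, and the balance passed the test (adjusted p = 0.00718), but not without replicate 1 (0.288) or replicate 2 (0.192). Stat6, of interleukin 4 signalling, had 484, 340 and 411 opposite Nab2, an inhibitor of EGR factors, with 585, 449 and 575 (0.356). Ddit3, a stress-response factor gene, had 565, 627 and 660 opposite 422, 250 and 359 on Mars, a tRNA synthetase gene (1.62e-08, and 0.0124 without replicate 2). Il12rb2, the receptor chain for interleukin 12 and a Th1 marker, had 90, 105 and 114 counts opposite 4527, 2917 and 4001 on Serbp1, an mRNA-binding protein gene (8.64e-04, but 0.2 without replicate 1 and 0.0906 without replicate 2). Jak1 had 542, 264 and 415 opposite 14, 17 and 17 on Raver2 (0.0826, and 0.0266 without replicate 3). Junb, an AP-1 gene, had 859, 637 and 677 opposite 225, 127 and 176 on Prdx2 (0.107), and Irf7, of the interferon response, 29, 24 and 25 opposite 277, 188 and 328 on Phrf1 (0.312).

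Foxp3, the factor of regulatory T cells, had 900, 829 and 907 counts opposite 57, 52 and 50 on Ccdc22, with 590 shared bases. The libraries of the genes did not overlap, and the balance did not differ beyond counting error (adjusted p = 0.8). Of Ccdc22's exon length, 86.3% is also exon of Gm36995 on its own strand, where read pairs in both genes are left out by default. Whether this lowered Ccdc22's counts was not tested. Csf1r, the one myeloid marker with 10 or more counts, named here after its values were seen, had 1429, 1418 and 1460 counts opposite 159, 70 and 129 on Hmgxb3 over 871 shared bases. Of the other 6 myeloid markers, 5 were at 0 in every library.

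Genes that make or read RNA 3′ ends and double strands were members in 8 pairs. All 22 genes of the 3′ end processing list had 10 or more counts in every library, and 5 of the 22 differed between libraries, against 35.6% of all genes tested. Its 4 members were Cpsf1 and Fip1l1, of the factor that recognises the AATAAA hexamer, Cpsf7, of the cleavage factor that binds UGUA, and Cstf2, of the cleavage stimulation factor. Cpsf7 had 157, 75 and 105 counts opposite 1007, 907 and 895 on Tmem216, and Cstf2 291, 178 and 252 opposite 620, 624 and 566 on Nox1, an NADPH oxidase gene known from colon. Fip1l1 had 407, 319 and 437 opposite 293, 280 and 248 on Lnx1, and Cpsf1 280, 158 and 222 opposite 61, 49 and 51 on Adck5. Of these pairs, balance passed the test for Cpsf7 (adjusted p = 3.49e-04), Cstf2 (6.34e-05) and Fip1l1 (0.00243), and not for Cpsf1 (0.328). Of all pairs tested, 43.8% passed. Without replicate 2 these values became 0.168, 0.798 and 0.162. The call for Cpsf7 was also lost without replicate 1 (0.0833) and that for Fip1l1 without replicate 3 (0.136).

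Of 25 genes that bind, edit or sense double-stranded RNA, 17 had 10 or more counts in every library and 4 of the 17 differed between libraries, against 35.6% of all genes tested. Oas1a and Tlr3 were at 0 in all. Adar, which edits adenosine in double-stranded RNA, had 122, 69 and 125 counts opposite 1526, 1608 and 1604 on Chrnb2, a nicotinic receptor gene known from neurons. Ago2, the slicer of RNA interference, had 471, 193 and 371 opposite 935, 917 and 908 on Chrac1. Dgcr8, of the microRNA processing complex, had 150, 91 and 145 opposite 1539, 1429 and 1607 on Trmt2a, and Ilf2, a double-stranded RNA-binding factor gene, 390, 223 and 338 opposite 608, 546 and 498 on Snapin. Balance passed the test in these 4 pairs (adjusted p = 2.87e-04, 2.58e-17, 0.0169 and 1.05e-05), against 43.8% of all pairs tested. It passed in none of the 4 without replicate 2 (0.929, 0.0951, 0.742 and 0.759). In all 8 pairs of both lists, the listed gene's share was lowest in replicate 2. Over the 696 tail-to-tail pairs, the lower gene's share was lowest there in 61.2%, but Cpsf1 and Fip1l1 are the higher genes of their pairs. Whether the listed genes differ from other members in this was not tested.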

How the data were processed

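Per the file headers, the authors deposited raw counts of read pairs per gene, from GENCODE release M13 exons; the program was featureCounts 1.4.6-p4, set to require both ends aligned and to count with strand option 1. The build is mm10, per the labels. The aligner's version and the kit are not given in the sources used here. Symbols and biotypes came from GENCODE release M21 by identifier (50376 of 50600 matched). M21 coding regions and transcripts gave the coding bases and 3′ ends, and 1393 of 1558 members have the same outer coordinates in both releases. Pairs were built from the deposited exon coordinates.

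With 1 group edgeR has no contrast to fit, so libraries were compared by chi-square tests against counting error (2 degrees of freedom). Genes were tested at TMM-scaled library sizes among genes passing filterByExpr, and pairs by the table of 2 genes in 3 libraries, with Benjamini-Hochberg adjustment over all genes or all protein-coding pairs tested. These tests take counting error as the only source of spread. Tests were tried on simulated counts. A difference between arrangements of pairs was not tested: with 3 libraries an exact sign-flip test cannot go below 0.25. Named pairs are the 12 with the most counts, those with the most and fewest shared bases, the most even and uneven, the smallest p for balance, and those of the fixed lists; 2 of these pairs are not reported here. Members and lists were chosen with earlier results of these data known. Each alternative setting changed 1 choice. Software was Python 3.11.15 (numpy 2.4.6, pandas 2.3.3, scipy 1.17.1) and R 4.3.3, where TMM came from edgeR 4.0.16 and the alternative size factors from DESeq2 1.42.0.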

Additional observations from a re-analysis of the deposited data

How the results depend on the processing

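The share of counts on tail-to-tail members was 24.6% with 100 or more shared bases required, 17.1% over pairs whose genes overlap no other opposite-strand gene, and 14.9% of TPM, an alternative chosen after seeing the data. Pairs with both genes at 10 or more counts numbered 385 among those isolated pairs, and members that differed between libraries 441. Leaving out each replicate in turn gave 255 to 741 such members and 58 to 342 pairs with a changed balance, the lowest in both cases without replicate 2. With an added minimum of 1.5-fold between the odds of libraries, 265 pairs remained called. The higher gene's median share was 83.8% with 100 or more shared bases, and the family gene's share 65.2% per kb of exon and, added after seeing the data, 40.9% with the counts of both genes of each pair exchanged. That last value follows from the main share by arithmetic. Spearman's rho of shared bases with counts was 0.31 with 100 or more shared bases, 0.36 over isolated pairs and 0.22 for the lower gene. Median counts per kb were 37.9 with 100 or more shared bases and 47.1 over members with 10 or more counts. Of 264 values of 53 named pairs under alternatives, 227 kept their side of the threshold, 35 lost the call (26 without replicate 2) and 2 gained it. The causes of these changes were not tested beyond the smaller sets and fewer libraries used. Counts under 3 and pairs under 10 counts are below what these depths can compare.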
